A study of Homo sapiens with 6 samples.

Results

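The MX and IFIT antiviral effector genes MX1, MX2, IFIT1, IFIT2, IFIT3 and IFIT5 were followed in A549 cells, a human lung adenocarcinoma line, after silencing of NME2. They were read by all probe sets (groups of short array probes that together measure a transcript) to which the platform annotation gives 1 symbol, one of these 6. There were 9 such probe sets among 54613, and 6 such genes among 19775 that had a probe set with a single symbol. The genes were chosen by name with their differences in array signal between NME2-depleted and control cells already known. Those differences are therefore only described. A fit over the whole table also covered members, and its calls on them are given as description and not as support.

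Transcripts were measured in 3 samples of NME2-depleted cells, transfected transiently with short interfering RNA (siRNA) directed at NME2, and in 3 samples of control cells that received control siRNA, each on its own array. All 6 samples were the same cell line, and their titles name only NME2-depleted or control cells and a replicate number. The siRNA treatment is not in the titles. The paper describes both transient siRNA silencing and a stable line made with short hairpin RNA. Its siRNA supplier differs from the one in the series text. The sources used here give neither the duplex sequences nor the time from transfection to harvest. Replicates are called biological in the series text without a description of separate cultures, so any spread given is that between these samples and may be technical.

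The array signal of NME2 was 6.85-fold lower in NME2-depleted cells, so the silenced transcript followed the labels. Median signals lay between 77.5 and 85.2 on NME2-depleted arrays and between 75.7 and 79.4 on control arrays. Markers of epithelial cells, the type this line comes from, were present, with 6 of 6 above the filter on dim probe sets. Their summed signals were 74012 to 81010 in NME2-depleted cells and 75537 to 82809 in control cells. Sums hide single markers. The median log2 difference of the 6, NME2-depleted minus control, was -0.003. KRT8 had -0.24, CDH1 0.21 and EPCAM 0.71, all named after their values were seen. Control replicate 1 stood apart from every other array for the genes described here, and results that move with it are also given without it.

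Type I and type III interferons are secreted proteins that cells release on sensing viral RNA or DNA. Their receptors activate the kinases JAK1 and TYK2, and a transcription factor complex that contains IRF9, named ISGF3, then binds the interferon-stimulated response element (ISRE) in promoters of target genes. MX1 and MX2 are large GTPases of the dynamin superfamily that block incoming viral particles. IFIT proteins are built of tetratricopeptide repeats and bind viral RNA or translation factors. In cells at rest these genes are usually weakly expressed, and they are among the transcripts most strongly induced by interferon.

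Promoter sequence was examined because a shared ISRE is the textbook link between these genes. RefSeq promoter windows on GRCh38.p14, of 250 bases before and 50 bases after a start site, were found for 4 of the 6 members, namely MX1, IFIT1, IFIT3 and IFIT5, with 7 start sites in all. The ISRE core was searched on both strands as GAAA, any 2 bases, GAAA, which reads TTTC, any 2 bases, TTTC on the other strand. It was present in 6 of the 7 windows, against 3.57% of 35116 promoters. Each of the 4 genes had it in at least 1 window, against 4.38% of 27305 genes. Among other effector genes with a window, it was in 4 of 4 membrane restriction factors and 12 of 17 other interferon-induced genes. It was in 1 of 2 OAS genes and 2 of 4 ISG15 conjugation genes. The start site of MX1 without it, the second along the gene, held 2 copies of a GAAA repeat with a spacer of 1 base, GAAANGAAA, where N is any base. That motif was added after the sequences had been seen, and it was in 3 of the 7 windows and in 3.12% of all promoters. It can overlap the ISRE core, as it did at the second start of IFIT3. The gamma-activated site TTCNNNGAA, a second element of interferon-responsive promoters, was in 1 of the 7 windows and in 7.66% of all promoters. A match of letters is a description and does not show that a factor was bound.

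The upstream stretches that hold these motifs are printed to show how close the copies lie to one another. Each runs 5′ to 3′ on the plus strand, on which all these genes lie, with matches to either GAAA repeat in capitals. They cover chr10:89392487-89392549 for IFIT1, chr10:89327821-89327904 and chr10:89332415-89332512 for the first and second starts of IFIT3, chr10:89414503-89414567 for IFIT5, and chr21:41420519-41420557, chr21:41426106-41426199 and chr21:41431834-41431883 for the first, second and last of the 3 starts of MX1.
IFIT1: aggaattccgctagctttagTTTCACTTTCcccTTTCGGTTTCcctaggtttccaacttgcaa
IFIT3 first start: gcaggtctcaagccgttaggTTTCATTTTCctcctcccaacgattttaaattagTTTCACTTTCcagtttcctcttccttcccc
IFIT3 second start: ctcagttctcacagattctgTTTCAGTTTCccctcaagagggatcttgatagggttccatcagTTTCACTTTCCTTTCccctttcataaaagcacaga
IFIT5: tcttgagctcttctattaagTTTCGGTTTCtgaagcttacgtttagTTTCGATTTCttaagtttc
MX1 first start: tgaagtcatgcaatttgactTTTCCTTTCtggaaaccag
MX1 second start: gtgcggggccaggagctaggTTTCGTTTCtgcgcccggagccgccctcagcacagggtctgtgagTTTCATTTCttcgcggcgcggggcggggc
MX1 last start: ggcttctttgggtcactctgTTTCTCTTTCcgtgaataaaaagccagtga

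In IFIT1 the 2 copies began 116 and 103 bases before the start, and the same letters TTTCACTTTC occurred in IFIT1 and at both starts of IFIT3. IFIT5 carried 3 copies, of which 2 lay wholly upstream, beginning 45 and 19 bases before the start. At the first start of MX1 the upstream match was to the repeat with the shorter spacer, and the ISRE core match lay in the transcribed leader, from base 12 to base 21.

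MX1 transcripts were much less abundant in NME2-depleted cells. MX1 encodes the GTPase MxA, which restricts influenza and other RNA viruses. The signal of its probe set on the linear scale of the arrays, was 144.6, 144.9 and 112.3 in NME2-depleted cells, against 3299, 531.3 and 697.8 in control cells, given here and below in the order of replicate numbers. Every NME2-depleted array was below every control array, and the control arrays were themselves spread over 6.21-fold. The mean log2 difference, NME2-depleted minus control, was -3.01 with a moderated standard error (SE) of 0.51, an 8.04-fold lower level. SEs here and below come from a fit that draws each probe set's spread towards that of probe sets of similar signal. They can therefore be smaller than the spread of the member's own arrays implies. For MX1 the log2 standard deviation between arrays was 0.21 in NME2-depleted and 1.42 in control cells. In bulk samples such as these, fewer cells with a transcript and less of it per cell cannot be told apart. Without control replicate 1 the log2 difference was -2.19, a 4.58-fold lower level.

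MX2, whose product interferes with nuclear entry of HIV-1, was dim. Its only probe set had signals of 30.4, 59.0 and 39.7 in NME2-depleted cells and 155.0, 36.5 and 77.5 in control cells. The groups overlapped, since control replicate 2 lay below 2 of the 3 NME2-depleted arrays. Its mean signal missed the filter of 71.7 below which probe sets were not fitted. The log2 difference of -0.87 became -0.36 without control replicate 1.

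IFIT1, which binds viral messenger RNA with an incompletely methylated cap, followed MX1 most closely in size. The signals of its probe set were 242.1, 266.6 and 349.0 in NME2-depleted cells and 5873, 599.7 and 1126 in control cells. All NME2-depleted values lay below all control values, and control replicate 1 was 9.79-fold above control replicate 2. The log2 difference was -2.49 (SE 0.61), or 5.60-fold lower, and -1.54 without control replicate 1.

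IFIT3, which stabilises IFIT1 in a shared complex, was read by 2 probe sets that ranked the arrays alike among controls. The brighter one gave 432.1, 472.4 and 575.3 in NME2-depleted cells and 3677, 778.9 and 1273 in control cells. The other gave 271.0, 266.6 and 318.9 in NME2-depleted cells and 1814, 520.9 and 616.0 in control cells. Neither overlapped between groups. Their log2 differences were -1.65 (SE 0.41) and -1.55 (SE 0.36), and without control replicate 1 they were -1.02 and -0.99. Both were read on the same arrays, so these SEs do not measure the gap between the 2 probe sets.

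IFIT2, which joins the same complex and can promote cell death when abundant, was lower by 2.55-fold. The brighter probe set had signals of 259.5, 286.7 and 184.4 in NME2-depleted cells and 997.4, 445.8 and 512.3 in control cells, with no overlap, and a log2 difference of -1.35 (SE 0.27). It was -1.0 without control replicate 1. The second IFIT2 probe set was under the filter, with 80.4, 4.7 and 103.1 in NME2-depleted cells and 262.8, 67.3 and 184.7 in control cells. Its groups overlapped, and the single value of 4.7 carried much of its log2 difference of -2.13, which was -0.70 with that array left out.

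IFIT5, which binds RNA with triphosphate ends and transfer RNA, had similar signals in both groups apart from control replicate 1. Its brighter probe set gave 838.6, 902.6 and 949.5 in NME2-depleted cells and 1748, 904.0 and 1009 in control cells. The second gave 322.4, 412.7 and 274.4 in NME2-depleted cells and 628.1, 364.2 and 326.9 in control cells. Both overlapped between groups. Their log2 differences of -0.38 (SE 0.20) and -0.34 (SE 0.24) were -0.09 and -0.06 without control replicate 1. The names of both IFIT5 probe sets mark probes that may match other transcripts.

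**Figure D1:**
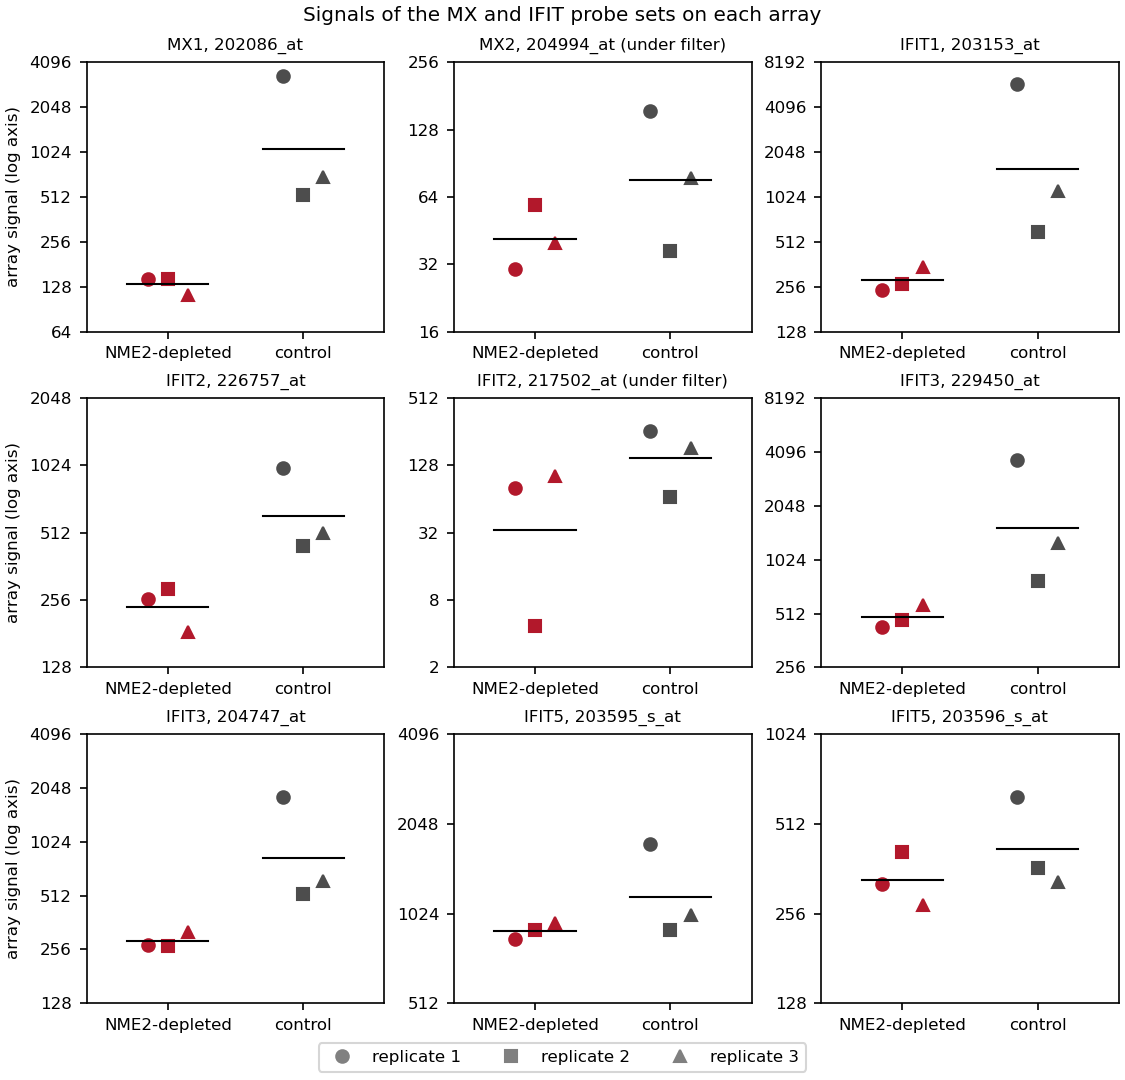
Signal of each of the 9 MX and IFIT probe sets on the 6 arrays. Array signal is drawn on a log axis, symbols mark replicate numbers and bars are the mean of 3 log2 values per group. Control replicate 1, the dark circle, is the highest point in all 9 panels.

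In NME2-depleted cells 9 of the 9 probe sets had a lower mean, and 5 did not overlap between groups, belonging to MX1, IFIT1, IFIT2 and IFIT3. Over all probe sets of the array, 6.73% were lower without overlap. The fit across the whole table tested 7 of the 9 probe sets, from 5 genes, and called MX1 alone lower at an adjusted p under 0.05 (limma, Benjamini-Hochberg), where 0.278% of all tested probe sets were called lower. The MX1 call was lost with no filter, with no intensity trend, with robust eBayes, and on leaving out any NME2-depleted array or control replicate 3. These counts describe members picked with the contrast known. The median log2 difference of the 6 genes was -1.50, against a median of 0.00064 over 12406 tested genes. It was -1.01 without control replicate 1.

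The members differed in how far each control array stood above the NME2-depleted ones. Relative to the mean log2 signal of the NME2-depleted arrays, the median of the 6 genes was -0.14, 0.07 and 0.01 in the NME2-depleted arrays, by replicate number, and 2.48, 0.78 and 1.24 in the control arrays. The order of control arrays, with replicate 1 highest and replicate 3 above replicate 2, held in 8 of the 9 probe sets, the exception being the dimmer probe set of IFIT5. MX1 stood 24.8-fold, 3.99-fold and 5.25-fold above the NME2-depleted mean in control replicates 1 to 3. IFIT1 stood 20.8-fold, 2.12-fold and 3.99-fold above it. IFIT5 was 1.95-fold, 1.01-fold and 1.13-fold above it, the smallest range of the 6 genes. Among NME2-depleted arrays the highest value was 1.13 to 1.94 times the lowest in 8 of the 9 probe sets, against 1.92 to 9.79 times among control arrays in those 8. The exception was the dim second probe set of IFIT2, at 21.9 times in NME2-depleted cells and 3.90 times in control cells.

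**Figure D2:**
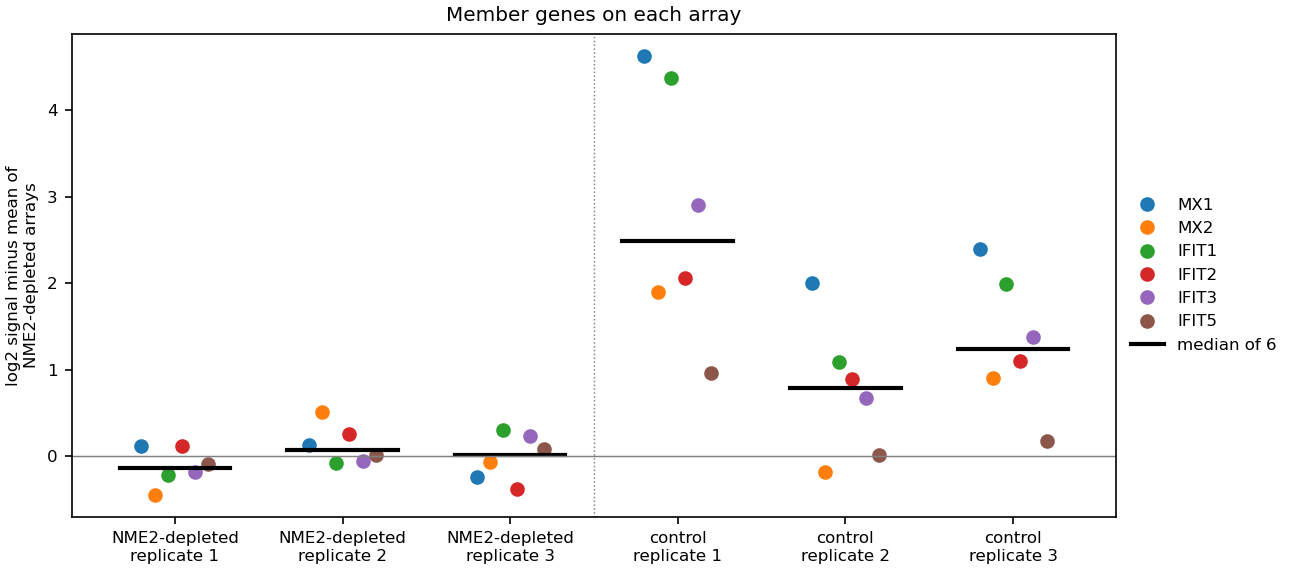
Log2 signal of the 6 member genes on each array, minus the gene's mean over the NME2-depleted arrays. Points are genes, read by its brightest probe set, and the black bar is their median, at 2.48, 0.78 and 1.24 in control replicates 1 to 3.

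Few genes shared the height of control replicate 1. Of 12406 tested genes, 25 (0.202%) were at least 2-fold above each of the other 5 arrays in control replicate 1. They included MX1, IFIT1 and IFIT3 and 15 genes of the interferon pathway lists below. No tested gene stood out in this way in any NME2-depleted array or in control replicate 2, and 1 did in control replicate 3. With control replicate 1 left out, 5 of the 9 member probe sets still did not overlap between groups, where 12.0% of all probe sets were lower without overlap. The whole-table fit then called 3 of 7 tested member probe sets lower, those of MX1, IFIT1 and the dimmer one of IFIT3, where 0.179% of tested probe sets were called lower. Leaving out control replicate 2 moved the differences away from 0, to -3.51 for MX1 and -3.19 for IFIT1.

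**Figure D3:**
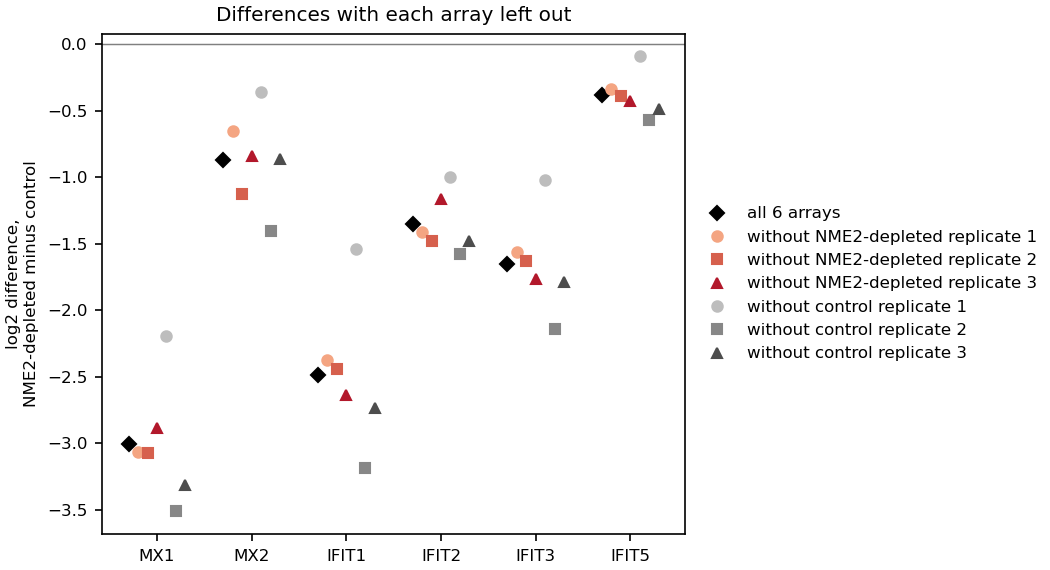
Log2 difference, NME2-depleted minus control, of each member gene with all 6 arrays (black diamond) and with each array left out. The median of the 6 genes ranged from -1.86 to -1.01 over the arrays left out, and the values nearest to 0 came without control replicate 1.

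Ranked from the lowest difference upward among 12406 tested genes, MX1 was 1, IFIT1 was 3, IFIT3 was 8, IFIT2 was 19 and IFIT5 was 685. Without control replicate 1 these ranks were 1, 5, 48, 56 and 4062. MX2 was not ranked because it missed the filter. The same held for some other interferon-induced genes, looked at afterwards. They included IFI44L (-4.10) and IFI27 (-2.86), whose NME2-depleted signals were dim, and also RTP4 (-0.82) and XAF1 (0.07). The ranks therefore hold among tested genes only.

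**Figure D4:**
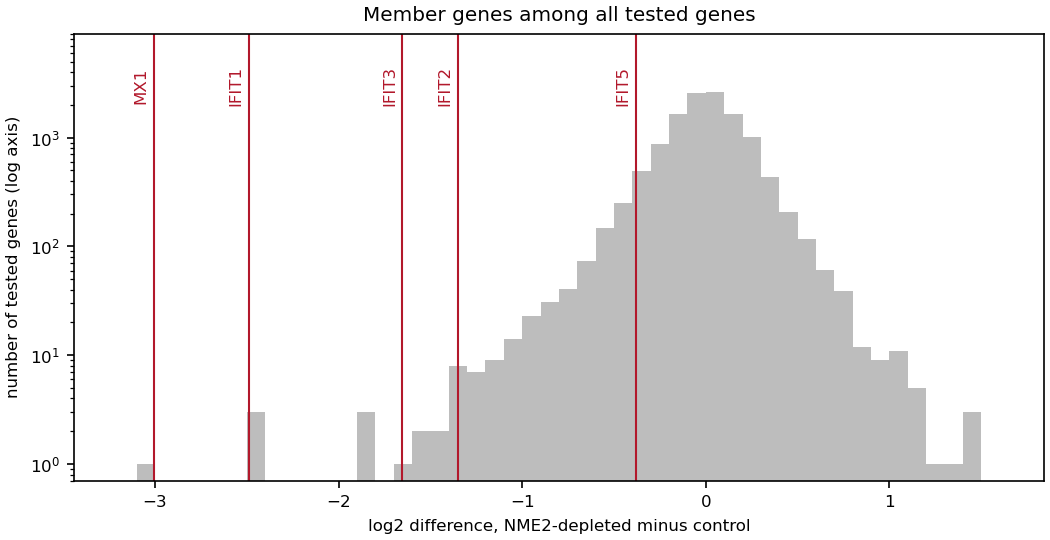
Distribution of log2 differences, NME2-depleted minus control, over 12406 tested genes. The vertical axis is the number of genes per bin of 0.1 on a log axis, and red lines mark the 5 tested member genes, from -3.01 for MX1 to -0.38 for IFIT5.

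The genes beside the members on the chromosomes were examined next. In the RefSeq gene order of GRCh38.p14, IFIT2, IFIT3, IFIT1 and IFIT5 lie in 1 cluster on chromosome 10 and MX2 and MX1 lie side by side on chromosome 21. The 4 protein-coding genes on each side of both clusters, together with IFIT1B inside the first, made 17 neighbours, of which 9 had a tested probe set. Their log2 differences lay between -0.33 and 0.29, with a median of -0.19, and 0 of 9 passed the whole-table fit by limma, 1 having an unadjusted p under 0.05. The nearest tested gene on each side of a cluster is given, a choice made after the values had been seen. LIPA, a lysosomal lipase next to IFIT2, had signals of 10867, 11206 and 11954 in NME2-depleted cells and 10125, 10120 and 10391 in control cells. PANK1, a pantothenate kinase beyond IFIT5, had 408.0, 438.7 and 362.6 in NME2-depleted cells and 569.8, 381.1 and 522.0 in control cells. On chromosome 21, BACE2, a protease near MX2, had 710.3, 634.8 and 639.2 in NME2-depleted cells and 693.9, 655.3 and 738.7 in control cells, and RIPK4, a kinase beyond MX1, had 362.8, 374.7 and 324.1 in NME2-depleted cells and 332.8, 324.9 and 242.9 in control cells. The 6 neighbours under the filter, also looked at afterwards, included FAM3B, next to MX2, with 5.0, 5.3 and 5.8 in NME2-depleted cells and 27.8, 5.8 and 6.5 in control cells, and PCP4, with 14.6, 24.6 and 8.8 in NME2-depleted cells and 24.7, 40.7 and 38.6 in control cells. Control replicate 1 was the highest control array in FAM3B, PANK1 and RIPK4 but not in PCP4, LIPA and BACE2.

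The other genes of the interferon pathway were taken from 9 lists that hold 84 genes, of which 54 were tested. In NME2-depleted cells 44 of the 54 had a lower mean. Of the 54 genes 27 did not overlap between groups on the lower side, against 10.1% of all tested genes, 2 were called lower and 0 called higher by limma, against 0.395% of all tested genes called lower. At an unadjusted p under 0.05 by limma, 28 of the 54 were lower and 1 higher. Over all 27307 tested probe sets, in either direction, such a p was reached by 3521. The unadjusted counts of the neighbours and of single lists are to be read beside this share, which counts probe sets and not genes. The median log2 difference of the 54 genes was -0.42. Without control replicate 1, a choice made after the arrays had been seen, 43 had a lower mean and the median was -0.24, 27 did not overlap, against 16% of all tested genes, and 2 of 53 tested were called lower, against 0.266% of all tested genes. Most of these genes belong to the same response as the members, so they are described beside them and not as separate support.

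Interferon ligands were near the lower limit of the arrays. Only IFNE and IFNA17 of 18 ligands on the array passed the filter, with log2 differences of 0.30 and 0.39. That of IFNE was -0.03 and that of IFNA17 0.36 without control replicate 1. The other 16 had signals with a median of 20.6 (1.8 to 76.1) in NME2-depleted cells and 12.65 (1.1 to 91.7) in control cells. IFNB1, chosen after its values were seen because it encodes interferon beta, had 23.4, 40.7 and 22.2 in NME2-depleted cells and 4.4, 8.9 and 5.6 in control cells, all of them under the filter. Signals so dim cannot be called present or absent here.

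Receptors and kinases of the pathway differed little between groups, with 0 of 6 tested genes called by limma (1 lower and 1 higher at an unadjusted p under 0.05) and a median of 0.03. TYK2 had -0.38, IL10RB, a receptor chain for type III interferons, 0.31, and IFNLR1, its partner chain, 0.17 (0.02 without control replicate 1). Among sensors and adaptors of viral nucleic acid 8 of 9 had a lower mean, 0 were called by limma (3 at an unadjusted p under 0.05) and the median was -0.35. The RNA helicases IFIH1 and RIGI had -0.82 and -0.52, and the endosomal receptor TLR3 had -0.41, and without control replicate 1 these were -0.19, -0.24 and -0.27.

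Among the transcription factors 6 of 7 tested had a lower mean, and IRF9, the DNA-binding part of ISGF3, was the 1 called. IRF9 had signals of 1010, 1180 and 943.3 in NME2-depleted cells and 2951, 1554 and 2443 in control cells, without overlap, and was 2.15-fold lower. Its log2 difference was -1.11 (SE 0.19), and without control replicate 1 it was -0.91 and no longer called. Its control arrays kept the order of the MX1 arrays but spread over a narrower range. IRF7, which amplifies interferon production, had 306.4, 470.1 and 380.2 in NME2-depleted cells and 1559, 598.0 and 698.5 in control cells, a log2 difference of -1.19, or -0.77 without control replicate 1. IRF3, the factor activated by viral sensors, differed by -0.21.

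Other effector families were lower in mean in every tested gene. Of the tested OAS genes, OAS1 and OAS3 make a signalling molecule on sensing double-stranded RNA. The 3 tested OAS genes had a median of -1.36, led by OAS1 (-1.55), OASL (-1.36) and OAS3 (-0.90). Without control replicate 1 these were -1.06, -0.73 and -0.36, with a median of -0.73. The 5 tested genes of ISG15 conjugation had a median of -1.03, or -0.64 without control replicate 1. ISG15 itself, a ubiquitin-like modifier, had signals of 688.0, 972.3 and 853.3 in NME2-depleted cells and 8486, 1369 and 2449 in control cells, and HERC6 and USP18 had -1.05 and -1.03. Without control replicate 1 the log2 differences of ISG15, HERC6 and USP18 were -1.14, -0.64 and -0.71. By limma 0 of the OAS genes and 0 of the ISG15 genes were called, with 3 and 4 at an unadjusted p under 0.05, and OAS1 was called once control replicate 1 was left out. Of the 3 tested membrane restriction factors IFITM2 was called (-0.62, and also without control replicate 1), IFITM1 had -1.45 and IFITM3 had -0.76. These were -0.50, -0.92 and -0.57 without control replicate 1. The names of all 3 probe sets mark probes that may match other transcripts. The same holds for the probe sets of other genes named here, among them OAS1, OASL, ISG15, IRF7, RIGI and IFI44. In a list of other interferon-induced transcripts 14 of 14 tested genes were lower in mean, 0 were called by limma (11 at an unadjusted p under 0.05) and the median was -0.83, or -0.42 without control replicate 1. IFI44, CMPK2 and IFI6 had -2.49, -2.41 and -1.31, and -1.71, -1.55 and -0.70 without control replicate 1. All 3 NME2-depleted signals of IFI44 (62.7, 31.0 and 36.3) and 2 of those of CMPK2 (59.6, 61.2 and 76.2) were below the filter signal of 71.7, so both passed the filter through control cells and their differences cannot be ordered beside that of IFIT1.

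Feedback inhibitors and relatives by structure gave smaller median differences among tested genes. Of 6 tested inhibitors 0 were called by limma, 1 had an unadjusted p under 0.05 and the median was -0.18. Apart from USP18, which is also an ISG15 protease, the largest were PIAS4 (-0.38) and SOCS1 (-0.31). Without control replicate 1 these were -0.41 and -0.35. SOCS3, named after its values were seen, had 0.25, or 0.56 without control replicate 1. The dynamin superfamily without MX had 10 tested genes, 0 called by limma, 2 at an unadjusted p under 0.05 and a median of -0.10. GBP2, itself an interferon-induced GTPase, had -0.64, ATL3 -0.31 and MFN2 -0.28. Without control replicate 1 these were -0.92, -0.32 and -0.27. GBP1, looked at afterwards, was under the filter, with 28.7, 40.8 and 8.1 in NME2-depleted cells and 131.3, 37.9 and 51.8 in control cells. Its groups overlapped, and its log2 difference was -1.59, or -1.07 without control replicate 1.

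**Figure D5:**
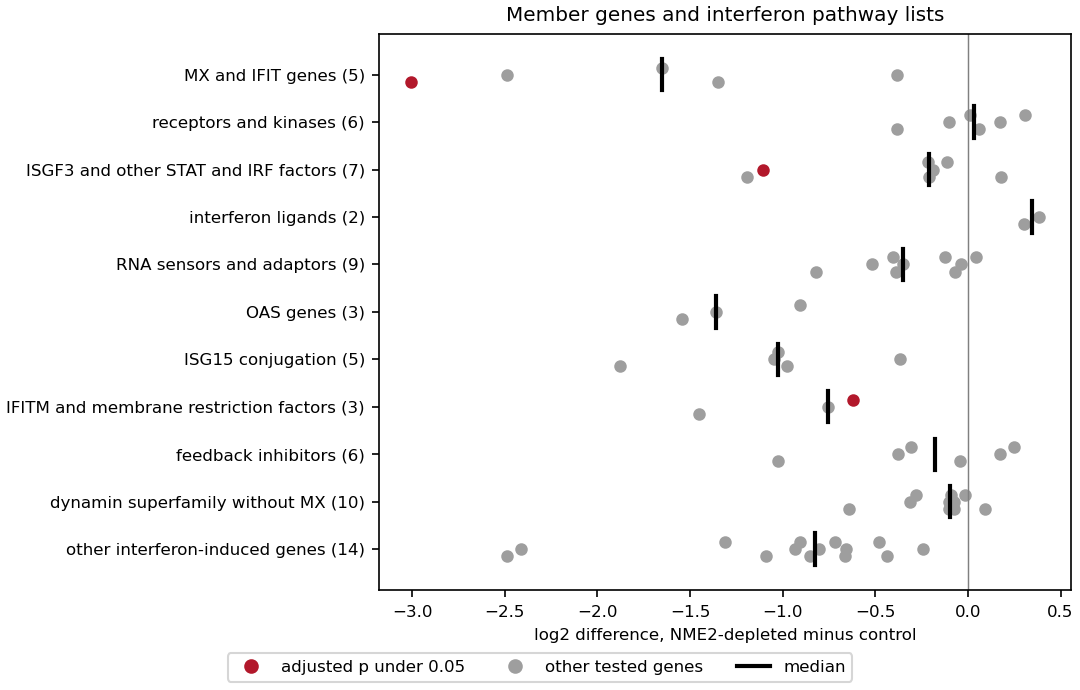
Difference in log2 signal, NME2-depleted minus control, of the tested member genes (top row) and of the tested genes of 10 lists. Each point is a gene, red points had an adjusted p under 0.05, the black bar is the median and the number of genes is in brackets. Medians lay at -1.36 for OAS genes, -1.03 for ISG15 conjugation and 0.03 for receptors and kinases.

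The genes whose pattern over the 6 arrays was most like that of the members were sought by the root mean square (RMS) distance between mean-centred log2 profiles. The 8 nearest non-member genes were CEMIP (0.15), ISG15 (0.21), OAS1 (0.26), IFITM1 (0.27), TRIM14 (0.28), IFI6 (0.28), OASL (0.35) and IRF7 (0.38), where the median tested gene lay at 1.1. For comparison, IFIT3 lay at 0.15, IFIT2 at 0.39, IFIT1 at 0.53, MX1 at 0.66 and IFIT5 at 0.77 from the mean profile to which they contributed. CEMIP, a hyaluronan-binding protein, had signals of 41.2, 59.0 and 49.5 in NME2-depleted cells and 437.1, 107.5 and 127.1 in control cells. Its NME2-depleted values lay under the filter signal of 71.7. The distance is a description over 6 arrays that share 2 groups and 1 scaling.

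Measures of RNA quality and of other cell types were set beside these results. The ratio of 3′ to 5′ signal of the actin control probes was 1.33, 1.34 and 1.40 on NME2-depleted arrays and 1.20, 1.30 and 1.23 on control arrays, without overlap and lowest in control replicate 1. The same ratio for GAPDH was 1.01, 0.98 and 1.06 on NME2-depleted arrays and 0.99, 0.97 and 1.02 on control arrays, with overlap. The part of RNA quality in the differences was not tested. Of 8 leukocyte markers 6 were on the array and 2 were tested, with summed signals of 352.6 to 477.5 in NME2-depleted cells and 412.4 to 588.2 in control cells and the pan-leukocyte marker PTPRC at 4.9 to 25.5 in NME2-depleted cells and 12.3 to 23.7 in control cells. Summed fibroblast markers, 3 of 6 tested, were 786.5 to 964.9 in NME2-depleted cells and 602.5 to 798.7 in control cells, and summed endothelial markers, 1 of 4 tested, were 262.0 to 343.9 in NME2-depleted cells and 187.4 to 308.9 in control cells. Most leukocyte markers on the array were under the filter, and the part of other cell types in the differences was not tested.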

How the data were processed

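Total RNA was labelled and each cRNA hybridised to 1 Affymetrix HG-U133 Plus 2.0 array by the authors. The authors deposited 1 linear intensity for each probe set and array, and GCOS 1.1.1 is named in the submitters' processing notes. The 2% trimmed mean was 500.06 to 500.07 on every array, so the authors' scaling was kept. Such scaling hides any change common to the whole transcriptome. Detection calls were not used here, and no dim signal is called absent.

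Of 54675 probe sets, 62 control probe sets were left out. Signals under 1 (0.327%) were set to 1 before log2. The brighter 27307 probe sets, whose mean log2 signal reached the median (a signal of 71.7), were fitted with limma 3.58.1 in R 4.3.3 (lmFit and eBayes with an intensity trend), and p-values were two-sided and adjusted by Benjamini-Hochberg over all of them. The platform annotation of 2016 named genes, and 0 symbols changed when looked up by gene identifier. A gene was read by its brightest probe set. The script was tested on simulated data. Arrays have no read depth, and 3 per group limit the precision.

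The members and all lists were chosen with earlier results of these data known. Named beside the members are up to 3 genes of largest difference per list, IRF9, and the 8 nearest profiles. Some further genes were named after their values had been seen, as said where they appear. Alternatives were other scalings, an offset of 16, other filters and variance models, weighting of arrays, a replicate block, leaving out each array, and other choices of probe set.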

Additional observations from a re-analysis of the deposited data

How the results depend on the processing

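The median log2 difference of the 6 genes stayed negative under every alternative run for it, and no gene's difference changed sign. Over the arrays left out in turn it ranged from -1.86 to -1.01. The whole-table fit called 108 probe sets, 70.4% of them lower (84.3% with median centring, which shifted the median of all tested probe sets to -0.04). It called 464 with the replicate block, 30 with no filter and 192 with a filter at the 75th percentile. With no intensity trend limma called 0, at 3130 with an unadjusted p under 0.05, and with an array left out it called 19 to 70. Of the member probe sets, 1 was called lower, 2 with median centring (MX1 and IFIT2), 4 with the replicate block (MX1, IFIT1, IFIT2 and the dimmer one of IFIT3), and 0 to 3 with an array left out, 3 without control replicate 1, 1 without control replicate 2 and 0 without each of the other 4. It was 0 by limma with no filter, with the 75th percentile filter, with no intensity trend and with robust eBayes, at 5, 3, 5 and 5 with an unadjusted p under 0.05. Over all tested probe sets, in either direction, such a p was reached by 4982 of 54613, 2342 of 13654, 3130 of 27307 and 3513 of 27307. Of all 27307 tested probe sets limma called 76 lower in the main fit, 107 with median centring and 283 with the replicate block. It called 49 lower without control replicate 1. The 75th percentile filter left 4 member probe sets to test and removed that of MX1. The cause of the other changes was not tested. The ISRE core was in 6 of 7 member windows and the repeat with the shorter spacer in 3.

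Deviations of same-numbered arrays from the group means correlated at 0.11, 0.08 and 0.07 for numbers 1 to 3. These values were small, but all 6 arrays correlated best with their own number. Whether same-numbered arrays were processed as pairs is not given by the labels and was not tested. Within numbers 1 to 3 the median member difference was -2.72, -0.68 and -1.31. By brightest probe sets MX2 (0.69) was the 1 gene higher in the NME2-depleted array of a pair, in number 2. The dimmer IFIT5 probe set was also higher there (0.18). The planned comparison of member protein sequences was not run.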
